A study of Homo sapiens with 6 samples.

Results

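Amino acid transporters of the solute carrier (SLC) families were examined in SK-MES-1, a human cell line established from a squamous carcinoma of the lung. The genes taken were those of the table whose symbol begins with SLC1A, SLC6A, SLC7A, SLC36A, SLC38A or SLC43A, with SLC7A11 left aside. That gave 46 of 15761 genes, all protein-coding. One of them, SLC7A6OS, is no transporter and enters only because its name derives from its neighbour SLC7A6. SLC43A3 carries nucleobases, and 5 genes of the SLC6 family carry GABA, betaine, taurine, creatine or serotonin. The study compared 3 samples of cells kept without exosomes (control) with 3 samples of cells kept for 72 h with exosomes at 20 µg/ml. Exosomes are small membrane vesicles released by cells, here by lung fibroblasts of idiopathic pulmonary fibrosis. The cells of both groups were labelled wild type, no group received other vesicles, and whether the 3 libraries of a group came from separate cultures is not stated. The p-values therefore reflect only how far these samples spread, which may be technical.

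Amino acid transporters work as a network. Exchangers such as ASCT1 (SLC1A4), ASCT2 (SLC1A5) and LAT1 (SLC7A5) swap one amino acid for another across the plasma membrane, whereas loaders such as SNAT1 (SLC38A1) and SNAT2 (SLC38A2) use the sodium gradient to accumulate glutamine and other small neutral amino acids that the exchangers then trade for essential ones. LAT1 and its relatives are light chains that reach the membrane only when bound to a heavy chain, in most tissues SLC3A2 (4F2hc, CD98). Inside the cell, amino acids at the lysosome activate the growth kinase complex mTORC1, and a shortage of amino acids activates the kinase GCN2 (EIF2AK4) and the transcription factor ATF4, which is known to induce SLC7A5, SLC1A4, SLC38A2 and asparagine synthetase. Many carcinomas, squamous lung carcinoma among them, carry high LAT1.

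With exosomes, transcripts of the most abundant loader and of the most abundant light chain were lower: SLC38A2 fell 1.69-fold and SLC7A5 1.47-fold. The neutral exchanger SLC1A4 fell 1.93-fold and the loader SLC38A1 1.42-fold. Each was still called lower after correction for the trends with GC content and transcript length, but the sizes differed. On the log2 scale SLC38A2 went from -0.76 to -0.41, SLC38A1 from -0.51 to -0.15, SLC1A4 from -0.95 to -0.79 and SLC7A5 from -0.55 to -0.84. Of 27 genes tested, 12 were called lower (44.4%) and 3 higher (11.1%), against 26.1% and 25.6% of all tested genes. Of the 12 called lower, 9 kept the call after correction, which called 17.3% of all tested genes lower. The glutamine exchanger SLC1A5 did not pass the test, but was called lower after correction (log2 fold change -0.37). The called rises lay in the weakly expressed genes SLC38A8 (3.23-fold) and SLC7A8 (1.55-fold) and in SLC38A10 (1.21-fold). After correction only that of SLC38A8 was still called. The abundant taurine carrier SLC6A6 did not pass the test, but was called higher after correction (log2 fold change 0.21). How many rises were called varied with the scaling and the libraries kept, as given below. Folds are fitted, and a gene counted as changed at an adjusted p under 0.05 in edgeR's quasi-likelihood test over 12449 genes. In bulk libraries, fewer cells with a transcript and less of it per cell cannot be told apart.

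Libraries held 11346639 to 13334508 read counts, and levels are given as CPM, counts scaled to a common library total, of which 1 stands for 11.3 to 13.3 reads. Control library 3 and exosome library 3 stood apart from the other libraries of their groups (chi-square per gene 7.15 to 15.6 against 2.29 and 3.11 between the other libraries of a group). Across the 12449 tested genes, which are not independent replicates, log2 fold changes ranked with GC content (Spearman rho 0.62) and against transcript length (rho -0.39). Most fold changes are therefore also given with both trends removed within each library, called the corrected value (rho then 0.038 and 0.0014). Of the squamous keratins, KRT5, KRT14 and KRT6A were below 1 CPM in both groups and TP63 stood at 1.51 ± 0.461 CPM in control and 2.28 ± 0.138 CPM with exosomes, while the simple epithelial keratin KRT8 stood at 2340.1 ± 86.5 CPM in control and 1944 ± 86.1 CPM with exosomes. Of the 7 squamous and epithelial markers tested, 4 were lower in edgeR's test and none higher: KRT17, a squamous keratin (log2 fold change -1.71, adjusted p = 9.55e-05), the adhesion molecule CDH1 (-1.39, adjusted p = 7.89e-10), KRT18 (-0.39, adjusted p = 0.000174) and KRT8 (-0.35, adjusted p = 0.00054). Over all tested genes 26.1% were called lower and 25.6% higher. Corrected, these markers were still called lower, and EPCAM was called lower as well (-0.31, edgeR adjusted p = 0.00221). The 7 fibroblast markers with a row summed to 68.8 to 75.5 CPM in control and 36.8 to 40.4 CPM with exosomes, mostly from COL1A1, and PDGFRA and THY1 were at or near 0. Of 4 immune markers CD14 and CD68 were higher (CD68 not after correction), while PTPRC and CD3E were at or near 0. The share of mitochondrially encoded reads was 6.45% to 9.18% in control and 5.98% to 7.003% with exosomes. The part of these shifts in the transporter results was not tested.

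Of the 46 genes, 27 had enough reads for the test and 19 did not. Among the 27, 12 were lower (44.4%) and 3 higher (11.1%), while 26.1% and 25.6% of all tested genes were called lower and higher, and 12 did not pass. In either direction 51.7% of all tested genes were called (35.4% corrected). The median log2 fold change over the 27 was -0.17, against -0.0042 over all tested genes. Corrected, 11 were lower and 2 higher, where 17.3% and 18.2% of all genes were called lower and higher, and the median was -0.15. Of the 12 lower genes, 9 were also called lower after correction, and of the 3 higher genes 1 was called higher. Genes that passed the filter on low counts are not a sample of the family, and these counts describe them only. Of the 27, 9 had all exosome libraries below all control libraries in CPM and 9 had them above, where 24.5% and 35% of all tested genes did (59.5% in either direction). Scaling by library totals in place of TMM factors moved the median of all genes by less than 0.1 on the log2 scale and gave 9 lower and 8 higher transporter genes. Over all genes it raised the share of calls that were higher from 49.6% to 60.4%. Without libraries 3 of both groups, 11 were lower and 6 higher, and without exosome library 1, 9 were lower and 1 higher.

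Promoter sequence is shown for 6 genes that the results turn on, from 140 bases before to 20 bases after a RefSeq transcript start (GRCh38.p14), because ATF4 binding sites and MYC-type E-boxes are known elements of such genes. Capitals mark a match to TGATGNAA, the core of the C/EBP-ATF response element, or to its reverse complement, or to the E-box CACGTG.
SLC38A2 (chr12:46372754-46372913, minus strand): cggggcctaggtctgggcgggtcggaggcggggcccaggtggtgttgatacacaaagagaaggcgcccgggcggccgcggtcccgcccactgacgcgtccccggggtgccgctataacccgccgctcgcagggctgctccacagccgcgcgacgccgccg
SLC7A5 (chr16:87869488-87869647, minus strand): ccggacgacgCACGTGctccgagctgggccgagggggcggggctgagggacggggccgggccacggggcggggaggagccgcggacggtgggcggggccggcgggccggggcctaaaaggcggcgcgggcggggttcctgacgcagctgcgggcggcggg
SLC1A4 (chr2:64989259-64989418, plus strand): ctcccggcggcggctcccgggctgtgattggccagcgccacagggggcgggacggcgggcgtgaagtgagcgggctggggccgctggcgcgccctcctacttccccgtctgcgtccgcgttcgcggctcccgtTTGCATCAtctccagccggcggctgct
SLC38A1 (chr12:46266497-46266656, minus strand): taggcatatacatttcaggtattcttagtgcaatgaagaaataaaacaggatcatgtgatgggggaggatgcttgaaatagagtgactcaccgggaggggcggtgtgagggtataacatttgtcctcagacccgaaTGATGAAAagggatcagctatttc
SLC7A1 (chr13:29595669-29595828, minus strand): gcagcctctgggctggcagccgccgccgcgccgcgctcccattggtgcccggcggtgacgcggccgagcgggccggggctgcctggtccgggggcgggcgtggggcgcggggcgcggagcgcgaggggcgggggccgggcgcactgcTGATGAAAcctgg
SLC7A8 (chr14:23154374-23154533, minus strand): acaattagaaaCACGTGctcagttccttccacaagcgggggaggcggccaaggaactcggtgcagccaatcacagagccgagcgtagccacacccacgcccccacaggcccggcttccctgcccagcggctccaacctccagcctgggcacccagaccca

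The SLC1A4 window holds the element on the minus strand at bases -7 to 1, counted from the transcript start as 1 with no base 0. In SLC38A1 the element lies at bases -4 to 4 on the plus strand, and in SLC7A1 at bases 8 to 15. The SLC7A5 window has an E-box at bases -130 to -125 and no match to the first motif, and the window of SLC7A8 has an E-box at bases -129 to -124. SLC38A2 has neither motif in this window. SLC1A4 and SLC38A1 have 2 annotated starts each and SLC7A8 has 4, of which those with a match are shown; the genes and windows were chosen after values and matches were seen. RefSeq promoters of 300 bases (250 before to 50 after the start) were found for 39 of the 46 genes, and the others were SLC1A2, SLC38A3, SLC43A3, SLC6A12, SLC6A6, SLC7A2 and SLC7A4. Searched on both strands, TGATGNAA occurred in 5 of these 39 genes (12.8%; 4.46% of 27303 genes with a promoter), namely SLC1A3, SLC1A4, SLC1A5, SLC38A1 and SLC7A1. Of the 11 lower genes with a promoter 3 had it, and of the 3 higher genes none. CACGTG occurred in 10 of 39 genes (25.6%; 8.78% of all), 2 of them lower (SLC7A5 and SLC7A7) and 1 higher (SLC7A8). A match of one motif can share 2 letters with a match of the other, which did not occur in these genes. A match is not a binding site, and genes with several starts had more sequence searched. The 27303 genes were not filtered by gene type or expression, whereas the 46 are all protein-coding, so the shares are of unlike sets.

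Levels of different genes are compared per length, in the authors' FPKM. SLC38A2 was the most abundant of the 46, at 217 ± 17.1 FPKM in control and 136 ± 9.21 FPKM with exosomes (mean ± SD, n = 3 per group here and below). SLC7A5 followed at 81.5 ± 3.58 FPKM in control and 58.8 ± 1.28 FPKM with exosomes, and SLC1A5 at 67.01 ± 4.53 FPKM in control and 72.4 ± 3.40 FPKM with exosomes. SLC7A5 lay above SLC1A5 in control and below it with exosomes, without overlap of the 3 libraries in either case. Next came SLC6A6 (mean over the 6 libraries 25.3 FPKM), SLC38A10 (21.2) and SLC38A1 (21.2), whose means are close to each other. Summed over the 46 genes, FPKM was 515, 527 and 570.04 for controls 1 to 3, against 438, 431 and 444 for exosome libraries 1 to 3. SLC38A2 made up 40.2%, 39.2% and 41.5% of that sum in control and 29.5%, 30.6% and 32.9% with exosomes. The share of SLC1A5 was 12.3% to 12.6% in control and 15.9% to 17.1% with exosomes, and that of SLC7A5 was 14.7% to 15.8% and 13.3% to 13.7%. The sum and all 3 shares separated the groups without overlap, as the CPM of 59.5% of all tested genes did. The trends with GC content and transcript length were not removed from FPKM. Fitted log2 fold changes of SLC38A2, SLC1A5 and SLC7A5 were -0.76, 0.029 and -0.55 uncorrected, and -0.41, -0.37 and -0.84 corrected. How the shares would stand after correction was not tested.

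**Figure D1:**
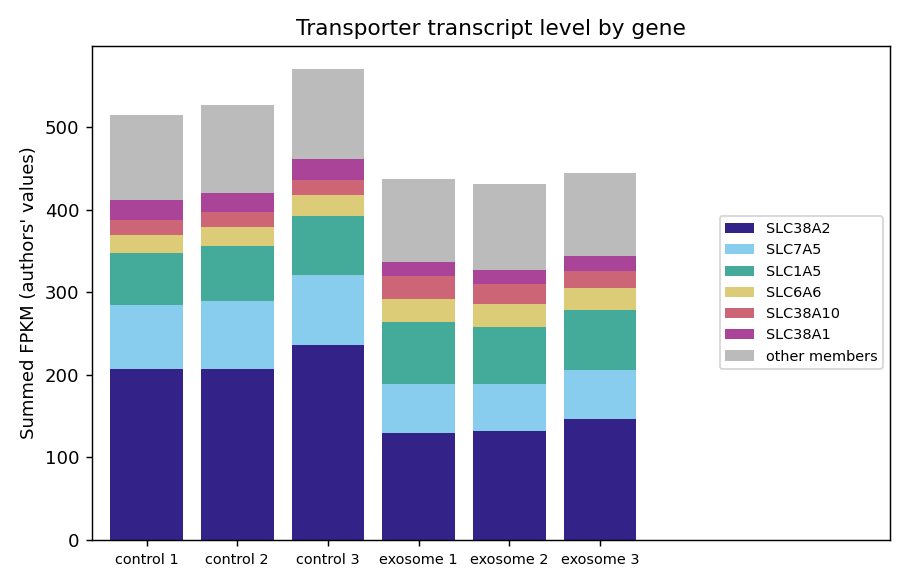
Summed FPKM (authors' values, linear axis from 0) of the 46 transporter genes in each of the 6 libraries, stacked by gene for 6 abundant genes and with all others in grey. The GC and length trends are not removed from these values. The sum is 515 to 570.04 in the 3 control libraries and 431 to 444 in the 3 exosome libraries, and the SLC38A2 block shrinks most.

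**Figure D2:**
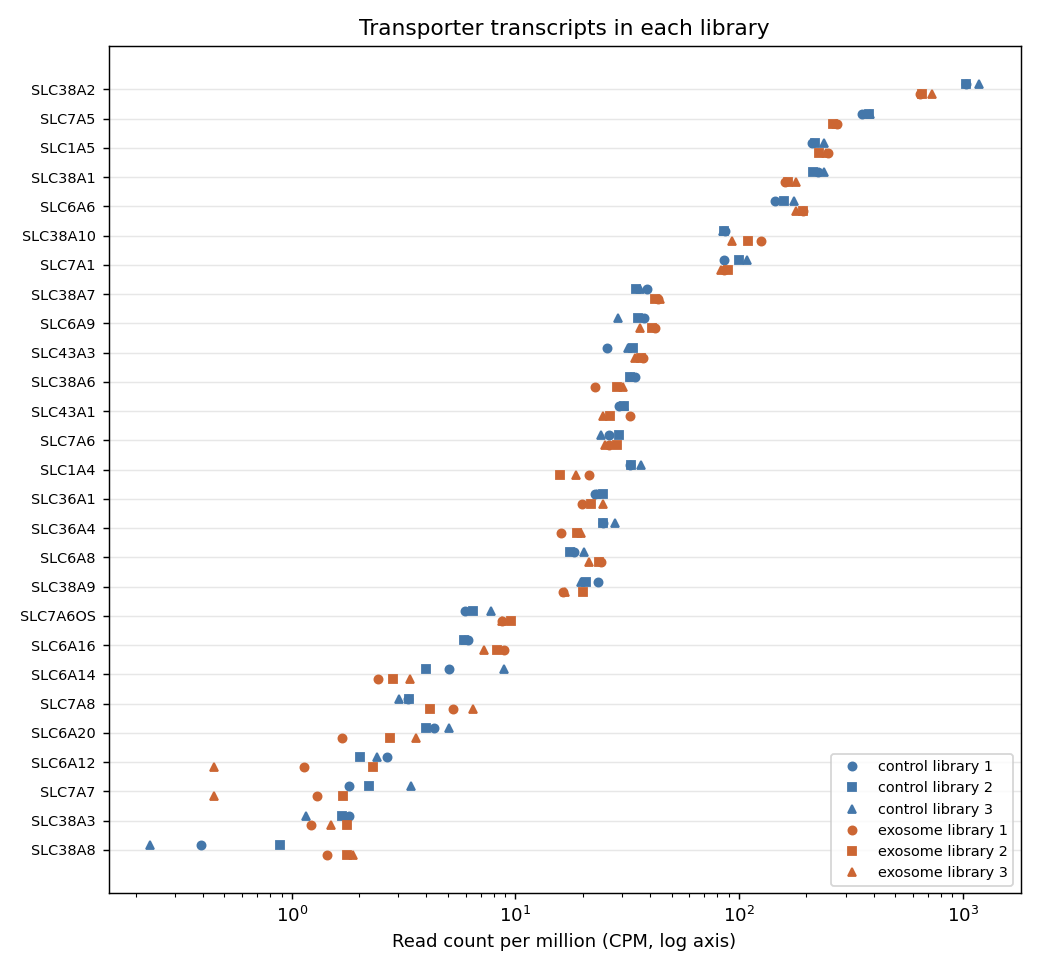
CPM on a log axis of the 27 tested genes in each library, ordered by mean level, with control libraries in blue and exosome libraries in orange and 1 symbol per replicate number. SLC38A2, SLC7A5, SLC1A4 and SLC38A1 show exosome libraries below all control libraries, while SLC1A5 overlaps.

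The neutral carriers of the SLC38 family held the largest changes by transcript amount, and of 11 genes 8 were tested, 4 lower and 2 higher (corrected 2 lower and 1 higher). Over all tested genes 26.1% were lower and 25.6% higher (corrected 17.3% and 18.2%). Beside these shares, the counts within each family here and below rest on too few genes to mark a family out. SLC38A2, which encodes the starvation-inducible loader SNAT2 (chromosome 12 from 46358189 to 46372867, GRCh38), had 1037, 1035 and 1184 CPM across controls 1 to 3 and 647, 660.1 and 732 CPM across exosome libraries 1 to 3. Every exosome library lay below every control library, and control library 3 was the highest. The log2 fold change was -0.76 ± 0.081 (SE; edgeR, adjusted p = 2.58e-07), and the corrected value -0.41 (adjusted p = 2.17e-05). Its neighbour SLC38A1 (chromosome 12 from 46183063 to 46270017), which encodes SNAT1, had 224, 215 and 239 CPM across controls 1 to 3 and 161, 166 and 179 CPM across exosome libraries 1 to 3. The groups did not overlap, and the log2 fold change was -0.51 ± 0.078 (edgeR adjusted p = 1.83e-05). Corrected it shrank to -0.15 (adjusted p = 0.0363). The SLC38A1 and SLC38A2 transcripts have 41.3% and 38.1% GC, and both fold changes were nearer 0 after correction.

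SLC38A6, a family member of little known substrate, had 34.3, 32.4 and 32.96 CPM across controls 1 to 3, then 22.8, 28.4 and 30.1 CPM across exosome libraries and a log2 fold change of -0.38 ± 0.11 (edgeR adjusted p = 0.0084). The call was lost after correction (-0.20, adjusted p = 0.115) and without exosome library 1 (adjusted p = 0.0778). SLC38A9, the lysosomal arginine sensor that signals to mTORC1, had 23.4, 20.6 and 19.6 CPM across controls 1 to 3, then 16.3, 20.02 and 16.6 CPM across exosome libraries. Its groups overlapped, and the log2 fold change of -0.35 (edgeR adjusted p = 0.0245) missed the threshold after correction (-0.042, adjusted p = 0.808), when libraries were scaled to their totals (adjusted p = 0.0859), and after leaving out control library 1 or exosome library 1 or 3 (adjusted p = 0.0601 to 0.152). SLC38A7, which carries glutamine out of lysosomes, had 38.8, 34.5 and 36.2 CPM across controls 1 to 3, then 43.4, 42.03 and 44.3 CPM across exosome libraries. Its groups did not overlap but its log2 fold change of 0.16 did not pass (edgeR adjusted p = 0.16; corrected -0.045).

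SLC38A10 and SLC38A8 were called higher. SLC38A10 had 86.3, 85.8 and 84.7 CPM across controls 1 to 3, then 125, 109 and 93.4 CPM across exosome libraries, with the widest spread in the exosome group. Its log2 fold change of 0.27 ± 0.091 (edgeR adjusted p = 0.0164) changed sign with the correction (-0.13, adjusted p = 0.138) and missed the threshold without exosome library 1 (0.16, adjusted p = 0.153). The transcript has 64.3% GC, the highest of the 27. SLC38A8, a glutamine carrier best known from the eye, had 5, 10 and 3 reads in control and 19, 23 and 25 reads with exosomes. All exosome libraries were above all control libraries, and the log2 fold change was 1.69 ± 0.45 (edgeR adjusted p = 0.00336; corrected 1.19, adjusted p = 0.047), a large fold that rests on few reads. Corrected and without libraries 3 of both groups it did not pass (0.72, adjusted p = 0.283). SLC38A3 stood at 1.55 ± 0.342 CPM in control and 1.49 ± 0.275 CPM with exosomes and did not pass (edgeR adjusted p = 0.774).

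Both ASCT exchangers, which swap alanine, serine, cysteine and, for ASCT2, glutamine, were tested. SLC1A4 (chromosome 2 from 64988477 to 65023865) had 32.5, 32.9 and 36.4 CPM across controls 1 to 3 and 21.3, 15.8 and 18.7 CPM across exosome libraries 1 to 3. The exosome libraries all lay below the control libraries, and the log2 fold change was -0.95 ± 0.12 (edgeR adjusted p = 1.77e-06; corrected -0.79, adjusted p = 9.40e-06). SLC1A5 (chromosome 19 from 46774883 to 46788594) had 211, 219 and 240.2 CPM across controls 1 to 3 and 249.9, 228 and 245 CPM across exosome libraries 1 to 3. Its groups overlapped and its log2 fold change was 0.029 ± 0.077 (edgeR adjusted p = 0.772). Its transcript has 61.3% GC, and its corrected value was lower and passed (-0.37, adjusted p = 0.0027), so whether SLC1A5 changed depends on how the trend is treated. The FPKM ratio of SLC1A4 to SLC1A5 was 0.109, 0.107 and 0.108 in control and 0.0606, 0.0491 and 0.0541 with exosomes. The ratio separated the groups without overlap. The pair was chosen after its values were seen, so no test is given. The GC trend is not removed from this ratio, and the SLC1A4 transcript has 46.5% GC against 61.3% for SLC1A5. Their log2 fold changes were closer together when corrected (-0.79 and -0.37) than uncorrected (-0.95 and 0.029).

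Of 6 light chains 4 were tested, 2 lower and 1 higher (corrected 2 lower and none higher). SLC7A5 (chromosome 16 from 87830023 to 87869488) had 355, 382 and 385 CPM across controls 1 to 3 and 275, 263 and 271 CPM across exosome libraries 1 to 3. Each group was tight and the groups were well apart. The log2 fold change was -0.55 ± 0.074 (edgeR adjusted p = 3.71e-06), and with 61.1% GC its corrected fall was larger (-0.84, adjusted p = 6.57e-09), the opposite of what the correction did to SLC38A1 and SLC38A2. Pseudogene copies close in sequence to SLC7A5 exist, and reads could be shared with them. The heavy chain SLC3A2 had 112, 121 and 133 CPM across controls 1 to 3, then 145, 129 and 111 CPM across exosome libraries and a log2 fold change of -0.0094 ± 0.089, which did not pass (edgeR adjusted p = 0.939). Without libraries 3 of both groups it was higher (0.14, adjusted p = 0.0494), and corrected it was lower (-0.39, adjusted p = 0.00084). The FPKM ratio of SLC7A5 to SLC3A2 was 1.83, 1.83 and 1.68 in control and 1.09, 1.18 and 1.42 with exosomes, again a pair chosen after its values were seen and without a test. The heavy chain of the kidney type, SLC3A1, was below 1 CPM in both groups and was not tested.

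The other light chains were far less abundant. SLC7A7, which encodes y+LAT1, an exporter of cationic amino acids, had 23, 25 and 44 reads in control and 17, 22 and 6 reads with exosomes. The groups did not overlap in CPM, and the log2 fold change was -1.20 ± 0.38 (edgeR adjusted p = 0.0118; corrected -1.33, adjusted p = 0.00946). Libraries 3 of both groups bore on it: without control library 3 it was -0.88 (adjusted p = 0.0827), without exosome library 3 -0.82 (adjusted p = 0.0728) and without both -0.51 (adjusted p = 0.275). SLC7A8, which encodes LAT2, had 42, 38 and 39 reads in control and 69, 54 and 86 reads with exosomes, with no overlap in CPM. Its log2 fold change of 0.63 ± 0.23 (edgeR adjusted p = 0.0246) missed the threshold when corrected (0.52, adjusted p = 0.0784), without control library 3 or exosome library 1 (adjusted p = 0.0529 and 0.056), and without exosome library 3 (0.45, adjusted p = 0.135). SLC7A6, y+LAT2, stood at 26.4 ± 2.49 CPM in control and 26.6 ± 1.65 CPM with exosomes and did not pass (edgeR adjusted p = 0.604). It overlaps SLC7A6OS on the opposite strand (log2 fold change 0.34, adjusted p = 0.0977), and no source used here says whether strand was used in counting.

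SLC7A1, the widespread cationic carrier CAT1 that brings in arginine and lysine, had 85.4, 100.4 and 109 CPM across controls 1 to 3, then 85.8, 89.04 and 82.9 CPM across exosome libraries. Control library 1 lay among the exosome libraries. The log2 fold change of -0.27 ± 0.087 passed (edgeR adjusted p = 0.0114; corrected -0.26, adjusted p = 0.00884) but did not when scaled to library totals (adjusted p = 0.077), nor without control library 2 or 3 (adjusted p = 0.0588 and 0.0643). The related SLC7A2 and SLC7A4 had too few reads for the test. Set beside the promoter windows, SLC1A4, SLC38A1 and SLC7A1, the 3 lower genes with TGATGNAA, had log2 fold changes of -0.95, -0.51 and -0.27. SLC38A2 and SLC7A5, without it in their windows, had -0.76 and -0.55, and SLC1A5, with it, was not called. SLC7A11, the cystine exchanger left aside here, fell by 1.14 on the log2 scale (edgeR adjusted p = 2.74e-08; corrected -0.61).

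Of 4 SLC36 genes, a family of amino acid carriers, 2 were tested and 1 was lower. SLC36A4 had 24.6, 24.6 and 27.9 CPM across controls 1 to 3, then 15.9, 18.9 and 19.6 CPM across exosome libraries, without overlap. Its log2 fold change of -0.58 ± 0.12 (edgeR adjusted p = 0.00034) did not pass when corrected (-0.15, adjusted p = 0.268), and its transcript has the lowest GC content of the 27, 35.03%. SLC36A1, known from lysosomes, stood at 23.5 ± 1.08 CPM in control and 22.1 ± 2.37 CPM with exosomes and did not pass (edgeR adjusted p = 0.229). Of 3 SLC43 genes 2 were tested and neither was called. SLC43A1, the facilitator LAT3 of large neutral amino acids, had 29.01, 30.6 and 30.6 CPM across controls 1 to 3, then 32.4, 26.5 and 24.5 CPM across exosome libraries. It overlapped between groups and did not pass (log2 fold change -0.19, edgeR adjusted p = 0.153), but it passed when corrected (-0.56, adjusted p = 0.000122) and without exosome library 1 (-0.31, adjusted p = 0.0392). SLC43A3 had a log2 fold change of 0.17 (edgeR adjusted p = 0.193) and a corrected value of -0.033 (adjusted p = 0.821).

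Of 8 amino acid carriers of the SLC6 family 4 were tested and 2 lower, and of the 5 genes for other solutes 3 were tested and 1 lower. The broad neutral and cationic carrier SLC6A14, found high in several carcinomas, had 64, 45 and 115 reads in control and 32, 37 and 45 reads with exosomes. The exosome libraries lay below all control libraries, and control library 3 was the highest of all. The log2 fold change was -1.14 ± 0.27 (edgeR adjusted p = 0.00154; corrected -0.78, adjusted p = 0.0241). Without control library 3 it was -0.72 (adjusted p = 0.0233), and the corrected value without libraries 3 of both groups did not pass (-0.49, adjusted p = 0.172). SLC6A20, a proline carrier, had 55, 45 and 65 reads in control and 22, 36 and 48 reads with exosomes and no overlap in CPM. Its log2 fold change was -0.81 ± 0.26 (edgeR adjusted p = 0.0132; corrected -0.75), and it did not pass without exosome library 1 (-0.56, adjusted p = 0.101). SLC6A12, a carrier of betaine and GABA, had 34, 23 and 31 reads in control and 15, 30 and 6 reads with exosomes. The groups overlapped, and its log2 fold change of -0.96 only just passed (edgeR adjusted p = 0.0453; corrected -1.20); DESeq2 did not call it (adjusted p = 0.0738). Nor did edgeR without any 1 of the control libraries or without exosome library 1 or 3 (adjusted p = 0.0532 to 0.212, with a log2 fold change of -0.56 without exosome library 3).

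The taurine carrier SLC6A6 had 145, 159 and 176 CPM across controls 1 to 3, then 193, 194 and 179.8 CPM across exosome libraries. All exosome libraries were above all control libraries, but the log2 fold change of 0.16 ± 0.079 did not pass (edgeR adjusted p = 0.0939). It passed when corrected (0.21, adjusted p = 0.012), without control library 3 (0.24, adjusted p = 0.00939), without libraries 3 of both groups (0.26, adjusted p = 9.62e-05) and when libraries were scaled to their totals (adjusted p = 0.0163). The creatine carrier SLC6A8 (log2 fold change 0.22, adjusted p = 0.121), the glycine carrier SLC6A9 (0.14, adjusted p = 0.296) and SLC6A16, of unknown substrate (0.35, adjusted p = 0.09), did not pass in edgeR's test. Corrected, SLC6A8 and SLC6A9 changed sign (-0.14 and -0.20) and SLC6A16 stood at 0.23. None of these passed when corrected either (edgeR adjusted p = 0.338, 0.0892 and 0.284).

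**Figure D3:**
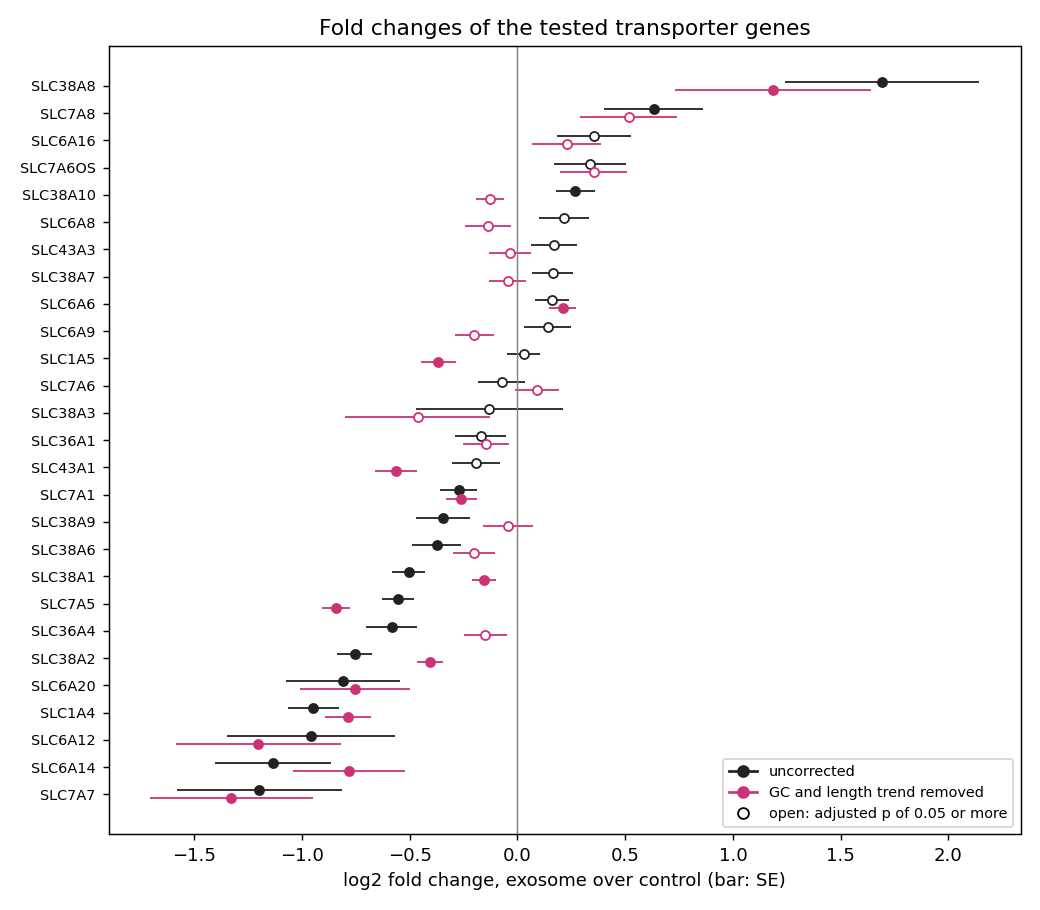
Log2 fold changes of exosome over control with standard errors for the 27 tested genes, uncorrected in black and with the GC and length trend removed in pink; filled points have an adjusted p under 0.05. SLC7A7, SLC6A14, SLC6A12, SLC1A4, SLC6A20, SLC38A2, SLC7A5, SLC38A1 and SLC7A1 are filled and below 0 both ways, and SLC38A8 is filled and above 0 both ways. SLC38A10, SLC1A5, SLC38A7, SLC43A3, SLC6A8, SLC6A9 and SLC7A6 change side. SLC1A5, SLC43A1 and, above 0, SLC6A6 are filled only in pink.

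The 19 genes not tested had at most 18 reads in any library, and 17 of them fewer than 10 in every library. They include the glutamate carriers SLC1A2, SLC1A3 and SLC1A7, of which SLC1A2 had 8 reads over the control libraries and 1 over the exosome libraries. SLC38A4 had 34 and 25 reads over the groups and SLC7A4 13 and 29. The rest were SLC36A2, SLC36A3, SLC38A5, SLC38A11, SLC43A2, SLC6A4, SLC6A7, SLC6A11, SLC6A17, SLC6A18, SLC6A19, SLC7A2, SLC7A9 and SLC7A10. A count of 0 in a library allows a level of up to 0.225 to 0.264 CPM, by counting error only. Fitted by edgeR without the filter on low counts, none of the 19 was called (lowest adjusted p = 0.124, in SLC1A2; 0 at an unadjusted p under 0.05). SLC7A4, whose groups did not overlap in CPM, had a log2 fold change of 0.98 (edgeR adjusted p = 0.242).

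Tested genes whose positions overlap another coding gene include SLC38A6 (TRMT5), SLC38A9 (DDX4), SLC6A6 (GRIP2), SLC6A8 (PNCK) and SLC6A9 (CCDC24), each on the opposite strand, and SLC43A3 overlaps an unnamed coding gene on its own strand. Antisense genes overlap SLC1A5, SLC38A2, SLC38A8, SLC38A10, SLC6A12 and SLC7A5. Reads of such partners cannot be told apart without strand. In the authors' deposited table, 11 of the 46 genes were lower and 2 higher at an adjusted p under 0.05, and each of these was also called here in the same direction. Both tests rest on the same libraries, so the match is no independent check. The share of all genes called in the authors' values was not counted. SLC6A12 and SLC7A8 were called here but not in the authors' deposited table (adjusted p = 0.0974 and 0.0599).

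Other amino acid transport genes, such as SLC3A2, peptide carriers and lysosomal or mitochondrial amino acid carriers, formed a list of 23 genes with 16 tested. Of these, 4 were higher and 2 lower, or 25% and 12.5%, with 25.6% and 26.1% over all tested genes, and the median log2 fold change was -0.025. Corrected, 2 were higher and 7 lower, with 18.2% and 17.3% over all genes, and the median was -0.20. SLC25A22, a mitochondrial glutamate carrier, went from 22.8 ± 1.92 to 35.2 ± 4.43 CPM (log2 fold change 0.54, edgeR adjusted p = 0.000454), a call lost after correction (0.079, adjusted p = 0.536). MFSD12, needed for cysteine import into lysosomes, was called higher (0.23, edgeR adjusted p = 0.024) and corrected was called lower (-0.39, adjusted p = 6.45e-05). SLC25A29, a mitochondrial carrier of basic amino acids, was lower both ways (-0.33 and corrected -0.53), although its groups overlapped, and it did not pass after leaving out 1 of control libraries 1 and 2 or of exosome libraries 2 and 3, or when scaled to library totals (adjusted p = 0.0696 to 0.104). SFXN1, the mitochondrial serine carrier, stood at 108 ± 12.7 CPM in control and 94.9 ± 8.58 CPM with exosomes, with a log2 fold change of -0.27 (edgeR adjusted p = 0.0173), which did not pass when corrected (-0.13). Nor did it after leaving out control library 3 (-0.16, adjusted p = 0.113), after leaving out either of exosome libraries 1 and 2 (adjusted p = 0.0925 and 0.0789), or with library totals as the scale (adjusted p = 0.0901).

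Genes through which amino acids signal to mTORC1 numbered 33, with 31 tested. There, 9 were higher and 8 lower (median log2 fold change -0.016), and corrected 4 were higher and 9 lower (median -0.025), with 25.6% higher and 26.1% lower over all genes and 18.2% and 17.3% corrected. SESN3, of the sestrin family that restrains mTORC1 when leucine is scarce, went from 66.5 ± 5.22 to 42.4 ± 4.14 CPM (log2 fold change -0.73, edgeR adjusted p = 3.61e-06; corrected -0.24). FNIP1, the partner of folliculin, went from 96.9 ± 14.99 to 61.6 ± 4.16 CPM (-0.74, edgeR adjusted p = 3.85e-06; corrected -0.36). The Ragulator subunit LAMTOR4 rose from 23.7 ± 3.97 to 43.8 ± 7.24 CPM (0.80, edgeR adjusted p = 7.26e-05; corrected 0.25), and NPRL2, a subunit of the inhibitory GATOR1 complex, from 13.8 ± 1.74 to 23.1 ± 2.14 CPM (0.67, edgeR adjusted p = 0.000197; corrected 0.40). MIOS, of the GATOR2 complex, fell by 0.40 on the log2 scale and CASTOR2, a relative of the arginine sensor CASTOR1, by 0.76 (edgeR adjusted p = 0.00103 and 0.00525; corrected -0.22 and -1.30). Activators and inhibitors of the pathway stood on both sides.

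All 26 genes of the amino acid response through ATF4 were tested. Of these, 7 were higher (26.9%, with 25.6% over all genes) and 9 lower (34.6%, with 26.1%), and the median log2 fold change was -0.079. Corrected, 5 were higher and 9 lower (18.2% and 17.3% over all genes), with a median of -0.17. The list holds the eIF2 kinases EIF2AK1 to EIF2AK4, of which GCN2 (EIF2AK4) is the one named above for amino acid shortage. All these kinases were among the 9 lower without the correction (log2 fold changes -0.31, -0.39, -0.40 and -0.34), and all but EIF2AK2 with it. How the list stands without these kinases was not tested. ASNS, asparagine synthetase, went from 129 ± 14.1 to 70.2 ± 3.70 CPM, a log2 fold change of -0.96 (edgeR adjusted p = 2.84e-08; corrected -0.99), close in size to that of SLC1A4. PSAT1, of serine synthesis, went from 152 ± 6.81 to 97.4 ± 7.70 CPM (-0.73, edgeR adjusted p = 4.03e-07; corrected -0.64). In the other direction, the mitochondrial serine enzyme SHMT2 rose from 170.2 ± 8.90 to 250.4 ± 32.98 CPM (0.47, edgeR adjusted p = 0.000101; corrected 0.20), the eIF2 phosphatase subunit PPP1R15A from 16.4 ± 3.80 to 31.4 ± 3.93 CPM (0.85, edgeR adjusted p = 0.000121; corrected 0.46), and the transcription factor CEBPB from 52.8 ± 11.7 to 117 ± 13.9 CPM (1.07, edgeR adjusted p = 0.000311; corrected 0.49). DDIT4, an inhibitor of mTORC1, was called higher only without the correction (0.41, edgeR adjusted p = 0.000846; corrected 0.0034). The ATF4 transcript itself, named outside the rule for naming genes, was higher without the correction (0.36, edgeR adjusted p = 0.00201) and did not differ beyond its error with it (0.0029, adjusted p = 0.975). ATF4 is controlled largely at translation, which RNA counts do not measure.

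**Figure D4:**
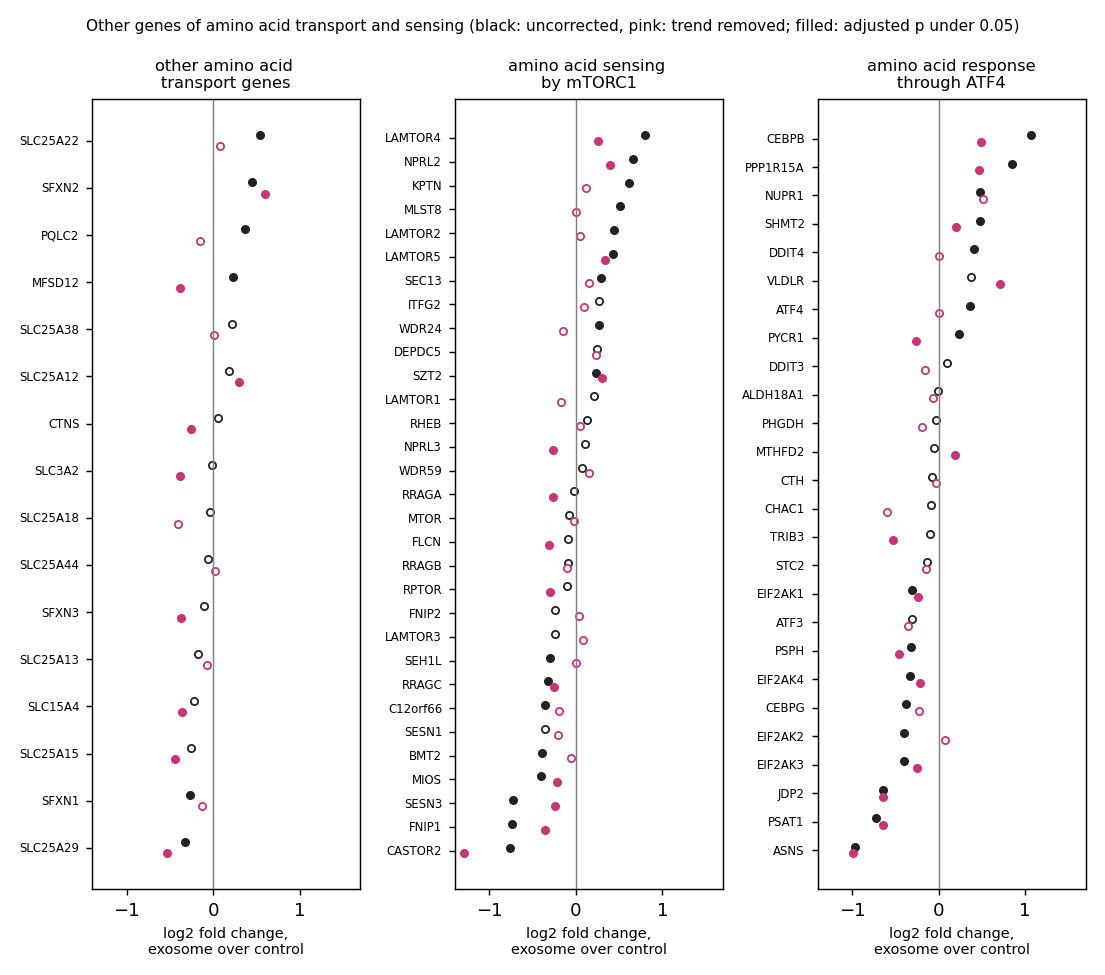
Log2 fold changes of exosome over control for the tested genes of the 3 lists, uncorrected in black and with the GC and length trend removed in pink; filled points have an adjusted p under 0.05. ASNS and PSAT1 lie lowest in the ATF4 list both ways, whereas genes such as MFSD12, DDIT4 and ATF4 shift to the left in pink.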

How the data were processed

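RNA was extracted with Trizol, libraries were built with a NEBNext Ultra kit and sequenced on an Illumina NovaSeq, per the labels' protocols and design text. The submitters' processing notes name STAR and GRCh38/hg38; how reads were counted, with or without strand, and on which annotation no source used here says. The authors' deposited table gives per gene and library a read count, a normalised signal and an FPKM value, per the file headers, with the authors' log2 fold change and p-values for the comparison. For the deposited read counts the robust quasi-likelihood test of edgeR (4.0.16, under R 4.3.3) was used after filterByExpr and TMM scaling, with group as the only term, over all 12449 genes that passed the filter, with Benjamini-Hochberg adjustment. CPM is the count scaled to a common library total, and the deposited FPKM served to compare levels between genes and for their sums, shares and ratios in each library, without a test. The trend correction fitted, in each library, a loess curve (span 0.3) of log2 CPM (prior count 2) less the gene's mean on GC content and log2 length of the longest GENCODE transcript, and entered it as an offset. Alternatives used DESeq2 1.42.0, limma 3.58.1, other scalings and filters, a replicate block and omitted libraries. Fits were tested on simulated data. Totals of 11346639 to 13334508 reads set a floor of 3 reads, or 0.225 to 0.264 CPM, for counting error only. The members and gene lists were chosen with earlier results of these data known. Named in full were called transporter genes whose groups did not overlap and whose mean was at least 1 CPM, the 5 highest by FPKM, both heavy chains, SLC7A11, and in each list up to 4 called genes with the smallest adjusted p and up to 2 against the list's majority.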

Additional observations from a re-analysis of the deposited data

How the results depend on the processing

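Of 10 counts of calls under 18 alternatives each, 149 of 180 values stayed within 1.5 times the value reported. The transporter genes were 12 lower and 3 higher; with scaling by library totals 8 were higher, at an adjusted p under 0.01 7 were lower and 1 higher, and without libraries 3 of both groups 6 were higher. Over all genes, 2148 in place of 3244 were lower with the trend removed, and 3190 higher became 2263. In the mTORC1 list the 9 higher genes became 5 at 0.01, 4 with the trend removed and 5 with the trend removed and a replicate block, and the 8 lower genes became 5 at 0.01. In the other transport genes the 4 higher became 2 with DESeq2, 1 at 0.01, and 2 with the trend removed, alone, with the block or without libraries 3 of both groups; the 2 lower became 0 with library totals and 0 at 0.01 in edgeR, and 7, 7 and 8 with the trend removed in those 3 ways. Leaving out 1 library at a time gave 9 to 12 lower and 1 to 4 higher transporter genes, with 1 higher without exosome library 1. It gave 2503 to 3234 higher and 2608 to 3375 lower genes of all. The ranges were 5 to 7 higher and 8 to 9 lower for ATF4, 4 to 9 (4 and 5 without exosome library 1 or 2) and 5 to 9 (5 without control library 3) for mTORC1, and 2 to 3 and 0 to 2 for other transport (2 higher after leaving out control library 2, control library 3, exosome library 1 or exosome library 2; 1 lower after leaving out control library 1, control library 2 or exosome library 1, and 0 after leaving out exosome library 2). At an unadjusted p under 0.05 in edgeR, 4 other transport genes were lower, 1 when scaled to library totals and 2 after leaving out exosome library 2, and DESeq2 and limma called 2 lower with all libraries. Among the genes followed singly under the alternatives, SLC1A5 reversed (-0.37 with the trend removed, -0.37 with the block as well, -0.36 without libraries 3 of both groups as well). So did SLC38A10 (-0.13, -0.13 and -0.051), MFSD12 (-0.39, -0.39 and -0.42) and SLC3A2 (0.14 without libraries 3 of both groups). Genes of the lists not followed in this way also changed sign with the trend removed. Among them, PYCR1 was called higher (0.24, edgeR adjusted p = 0.0445) and then lower (-0.26, adjusted p = 0.021). NPRL3 (0.11 and then -0.27) and CTNS (0.059 and then -0.25) were called lower only with the trend removed. The cause was not tested. SLC1A4, SLC38A1, SLC38A2 and SLC7A5 kept their call under all 18 alternatives; over the 15 called transporter genes 220 of 270 calls were kept, 47 missed the threshold and 3, all in SLC38A10, reversed. Replicate numbers are shared between the groups without a stated pairing. Same-numbered libraries deviated together with correlations of 0.0664, 0.103 and 0.206, and every library correlated best with its own number, as a hint only. With the replicate block SLC6A6 became called (0.16, adjusted p = 0.0359 in edgeR), and 12 transporter genes were lower and 4 higher, 3525 and 3444 of all genes, 10 and 9 of mTORC1, 9 and 7 of ATF4, and 3 and 4 of other transport. Depth limits the 19 untested genes and those resting on few reads, SLC38A8, SLC7A7 and SLC6A12.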
